A study of Mus musculus with 4 samples.

Results

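Tox, Tox2 and Tox3 are the 3 paralogs of Tox4 in the mouse genome, and they were followed here through thymocyte development and in thymocytes in which Tox4 was deleted. They were taken by gene symbol, 3 genes of 32285 counted in each cell. Single thymocytes were sequenced in droplets by a method in which every transcript is caught at its poly(A) tail and counted through a unique molecular identifier (UMI). Both groups carried floxed Tox4 alleles. The control mice were Tox4 f/f without Cre (2 libraries), and the conditional knockout mice (cKO) were Tox4 f/f;Lck-Cre (2 libraries), in which the proximal Lck promoter drives Cre in developing T cells from the DN stage on, so other cells of the thymus keep the gene. Per the study's methods the mice were young adult littermates of the same sex.

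The TOX family comprises nuclear proteins that share a single HMG box, a DNA-binding fold that recognises DNA shape more than sequence. TOX is needed for the CD4 T cell lineage, is induced in thymocytes when the T cell receptor (TCR) is engaged during positive selection, and in the periphery marks exhausted CD8 T cells. TOX2 is known from natural killer cells and follicular helper T cells, and TOX3 mostly from neurons and the mammary epithelium. T cells pass from double-negative (DN) through double-positive (DP) to single-positive (SP) stages. DP cells first divide as blasts (DPbla), then rest while they rearrange the TCR alpha locus (DPre), and are then selected by their TCR (DPsel) before they become CD4SP or CD8SP cells.

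In the GRCm38 build with GENCODE release M21 annotation, Tox (ENSMUSG00000041272) lies on the minus strand of chromosome 4 from 6686353 to 6991557, with 9 exons in its longest coding transcript. Tox2 (ENSMUSG00000074607) lies on the plus strand of chromosome 2 from 163203125 to 163324170, also with 9 exons. Tox3 (ENSMUSG00000043668) lies on the minus strand of chromosome 8 from 90247040 to 90348343, with 7 exons. The longest stretches of identical sequence between the longest coding transcripts of Tox and its 2 paralogs are shown. No longer read matches both transcripts without a mismatch, and matches with mismatches were not examined.
Tox and Tox3: ccagctgaccaccatcaaccagtc
Tox and Tox2: aagaagaagaagaagaagga
The first stretch has 24 bases and lies in coding exon 4 of both genes, at chr4:6741425-6741448 in Tox and chr8:90258014-90258037 in Tox3. The second has 20 bases and lies in coding exon 5 of both, at chr4:6722292-6722311 in Tox and chr2:163315849-163315868 in Tox2. Both lie over 2000 bases from the 3′ ends of the transcripts, and the last 1000 bases of the transcripts shared no more than 12 bases between Tox and Tox2 and 10 between Tox and Tox3.

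The 4 libraries held 57354 cells and between 42716798 and 62007453 UMIs each. After filters on UMIs, mitochondrial share and doublets, 33414 cells remained, and any pair of libraries shared between 10 and 31 kept cell barcodes. Stages were set per cell by UMIs of marker genes with none of the Tox genes among them, which gave 180 DN, 2946 DPbla, 17081 DPre, 1053 DPsel, 797 CD4SP and 578 CD8SP cells. Control 1 had 11 DN cells. Of the markers not used in the gates, all 6 of DN, all 4 of DPbla, all 5 of DPre and all 4 of CD8SP were highest in their own stage, against 5 of 6 for DPsel and 2 of 4 for CD4SP (Cd40lg and Cd28 were highest in DPsel). Levels are given as UMIs per 1000000 UMIs of the summed cells (CPM). Because poly(A) capture differs between transcripts, levels were compared between stages and not between genes. The study describes 2 pairs of control and cKO mice, but no label says that the library numbers mark these pairs, and p-values measure only the spread between these libraries.

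Tox was at its highest in DPsel thymocytes and, by the stage gates, remained above the DPre level in both SP lineages. Its level was 49.8, 49.5, 49.4 and 46.9 CPM in DPbla of control 1, control 2, cKO 1 and cKO 2. In DPre it was 103, 107, 106 and 113 CPM in the same order. In DPsel it reached 432, 454, 396 and 434 CPM. Every DPsel library thus stood above every library of every other stage. The spread within DPbla, DPre and DPsel was small beside the steps between them.

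In CD4SP cells Tox stood at 199.6, 216, 174 and 164 CPM. In CD8SP cells it stood at 169, 188, 147 and 153 CPM, so that the 2 lineages overlapped. In DN cells it ranged from 20.03 to 100.4 CPM, a spread that goes with few cells (86 Tox UMIs in all), and the 639 cells of the DN cluster, which is defined below, gave 73.6, 73.1, 72.4 and 61.3 CPM.

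Sums per stage and library were compared with edgeR's quasi-likelihood test with library as a term, adjusted by Benjamini-Hochberg over all 9698 genes tested, and all 3 paralogs passed the filter on low counts. Between DPre and DPsel, Tox rose by 2.08 ± 0.08 on the log2 scale (SE, n = 4 libraries, edgeR adjusted p = 1.2e-24), in a contrast in which 37.6% of genes were called. From DPbla to DPre it rose by 0.84 ± 0.08 (edgeR adjusted p = 2.6e-12, 75.0% of genes called). From DPsel it fell to CD4SP by 0.91 ± 0.09 (edgeR adjusted p = 3.1e-11, 27.4% of genes called) and to CD8SP by 1.07 ± 0.09 (edgeR adjusted p = 1.1e-12, 26.9% of genes called).

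The 2 SP lineages were not separated. Tox was lower in CD8SP than in CD4SP by a log2 difference of -0.16 ± 0.10 with a 95% interval of -0.37 to 0.05 (edgeR adjusted p = 0.44, 6.19% of genes called). Where clusters replaced the gates the same difference was -0.41 ± 0.08 and passed (edgeR adjusted p = 1.2e-04). Between DN and DPbla Tox fell by 0.47 ± 0.18 (edgeR adjusted p = 0.029, 41.4% of genes called). That call was lost without control 2 (-0.33, edgeR adjusted p = 0.22), without cKO 2 (-0.33, edgeR adjusted p = 0.40), and with stricter gates (-0.43, edgeR adjusted p = 0.088).

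Ordered by mean CPM, Tox ran from DPbla (48.9) over DN (58.1), DPre (107), CD8SP (164) and CD4SP (188) to DPsel (429). Besides CD8SP and CD4SP, the neighbours DN and DPre did not pass the test (DPre minus DN 0.37 ± 0.16, edgeR adjusted p = 0.068, 42.2% of genes called), while CD8SP exceeded DPre by 1.01 ± 0.09 (edgeR adjusted p = 1.9e-12, 51.2% of genes called). These 2 contrasts were added after the levels had been seen and were run with the main settings alone. By cluster, CD8SP and DPre were less far apart. Over the pooled libraries CD8SP-like cluster 14 held 110 CPM of Tox. The DPre-like clusters held 77.8, 86.3, 90.8, 109 and 128 CPM, the last from 58 UMIs.

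Cell size differs between the stages, and CPM divides by it. The median DPbla cell held between 7394 and 9238 UMIs per library and the median DPre cell between 2244 and 3093. In UMIs per cell, Tox stood at 0.363 to 0.437 in DPbla and at 0.270 to 0.330 in DPre, the opposite order to that of the CPM. DPsel cells held 1.64 to 2.10 Tox UMIs each, so the step from DPre to DPsel had the same direction on both scales.

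Free RNA from broken thymocytes can add to these values. Mononuclear phagocytes (MPS) and B cells, which should hold little thymocyte RNA of their own, had 856 to 1519 and 422 to 744 CPM of Cd8b1, the CD8 beta chain gene of thymocytes. Tox in those droplets reached 68.6 to 80.7 CPM in MPS and 28.8 to 60.3 CPM in B cells. The DPbla level lay below that of MPS droplets in every library but above that of B cells in 3 of 4, so it was not separated from this background. The DPre level lay above both in every library.

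**Figure D1:**
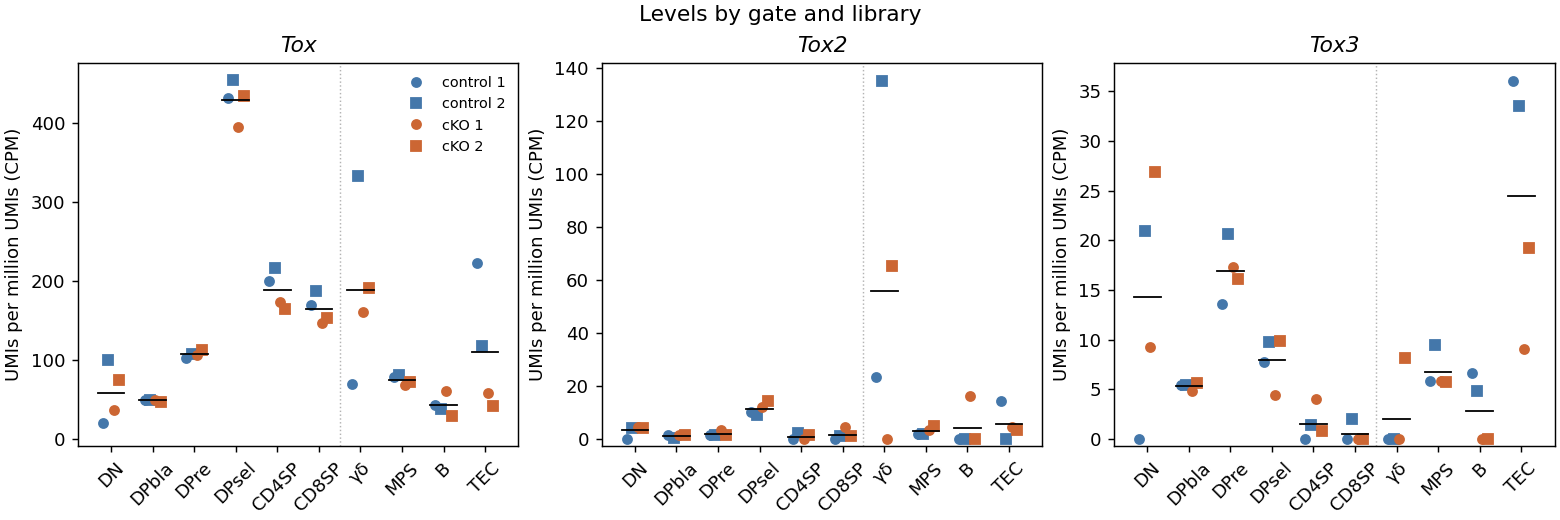
Levels of Tox, Tox2 and Tox3 (UMIs per 1000000 UMIs, linear axes of different range) in the 6 stage gates and, right of the dotted line, in the gates of γδ T cells, MPS, B cells and thymic epithelial cells (TEC). Points are single libraries (blue control, orange cKO; circles replicate 1, squares replicate 2) and black lines are means of the 4 libraries; Tox is highest in DPsel at 396 to 454 CPM, Tox2 in the γδ gate, and Tox3 in DPre, in 2 of the DN sums and, from 17 UMIs, in the TEC gate.

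The share of cells with a Tox UMI gave the same order once every cell was thinned to 1000 UMIs. It was 31.8% to 39.7% in DPsel over the 4 libraries, against 8.98% to 9.66% in DPre and 3.94% to 5.91% in DPbla. CD4SP cells had 14.3% to 20.2% and CD8SP cells 8.99% to 20.6%. At this depth 5.96% to 7.28% of MPS droplets and 2.70% to 5.41% of B cells had a Tox UMI. The DPbla share lay below that of MPS droplets in every library and above that of B cells in control 1 alone, so it was not separated from background. Without thinning up to 74.6% of DPsel cells of a library and 23.3% of DPre cells had one.

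Within the selected and SP gates, Tox was graded with maturity. DPsel cells without a Rag1 or Rag2 UMI, genes of the recombinase that is switched off at selection, had 515, 575, 479 and 585 CPM of Tox (control 1, control 2, cKO 1, cKO 2). DPsel cells with such a UMI had 405, 334, 349 and 319 CPM, lower in each of the 4 libraries. The 2 sets held 440 and 613 cells.

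SP cells were split by S1pr1 and Klf2, the receptor and the factor by which mature thymocytes leave the thymus. CD4SP cells with neither UMI had 341, 306, 236 and 190.2 CPM of Tox, against 166, 198, 156 and 159.5 CPM in cells with one. CD8SP cells gave 294, 265, 207 and 209 CPM without and 139.8, 157, 128 and 135 CPM with such a UMI. In each lineage and library Tox was lower in the more mature cells. These finer gates are a description and depend in part on depth, since deeper cells are more likely to show a UMI.

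**Figure D2:**
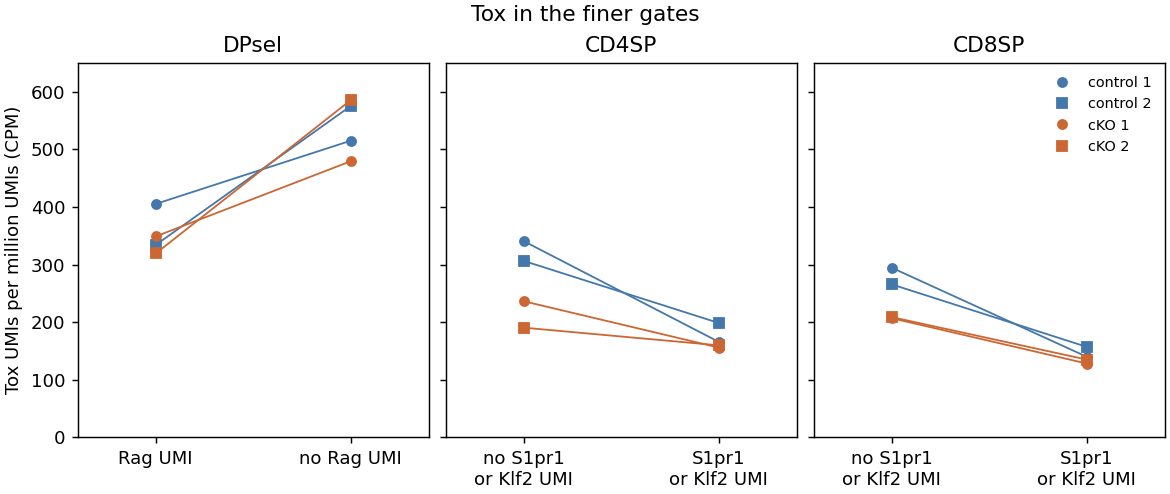
Tox level (UMIs per 1000000 UMIs, axis from 0) in DPsel cells split by Rag1 or Rag2 UMIs and in SP cells split by S1pr1 or Klf2 UMIs. Each line is 1 library; all 4 rise from 319 to 405 CPM towards 479 to 585 CPM in DPsel and all fall with S1pr1 or Klf2 in both SP lineages.

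Tox2 was sparse, with 495 UMIs over all kept cells. Among the 6 stages its mean level was highest in DPsel, which the test below did not separate from DN. Its DPsel level was 10.1, 8.99, 12.02 and 14.4 CPM (13, 11, 11 and 16 UMIs). In DPre it was 1.36, 1.41, 3.36 and 1.62 CPM, and in DPbla 1.42, 0.203, 1.61 and 1.504 CPM. All DPsel libraries lay above all DPre and DPbla libraries, while DPre and DPbla overlapped each other. In MPS droplets Tox2 stood at 1.67 to 4.91 CPM, a range that held 1 of the 4 DPre values and lay above all DPbla values.

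In the SP gates, which require UMIs of maturity genes, Tox2 was close to absent from the counts. CD4SP sums held 0, 3, 0 and 2 UMIs, and CD8SP sums 0, 1, 4 and 1. For control 1, whose counts were 0 in both, 3 counts would correspond to 4.61 CPM in CD4SP and 4.71 CPM in CD8SP, a limit that covers counting error only. The DN sums held 0, 1, 1 and 3 UMIs.

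Tox2 rose by 2.68 ± 0.34 from DPre to DPsel (edgeR adjusted p = 1.2e-08). It fell by 2.91 ± 0.59 to CD4SP (edgeR adjusted p = 1.2e-04) and by 2.42 ± 0.57 to CD8SP (edgeR adjusted p = 0.0010). The other contrasts between neighbouring stages did not pass, with 0.37 ± 0.35 for DPre minus DPbla (edgeR adjusted p = 0.34) and -1.65 ± 0.87 for DPbla minus DN (edgeR adjusted p = 0.13). In order of mean CPM Tox2 ran from CD4SP (0.910) over DPbla (1.18), CD8SP (1.66), DPre (1.94) and DN (3.26) to DPsel (11.4). DPsel was not separated from DN, for which the few counts gave 1.401 ± 0.675 (edgeR adjusted p = 0.10, 36.0% of genes called, contrast added after the levels had been seen). At 1000 UMIs per cell, 9 of 1051 DPsel cells and 28 of 16556 DPre cells had a Tox2 UMI.

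Of all gates and clusters, the highest Tox2 level was found outside the αβ stages, in γδ T cells, which carry the other kind of TCR. The γδ gate (Trdc UMIs without CD4, CD8, Il2ra or Ptcra) held 5, 16, 13 and 39 cells, and its Tox2 UMIs numbered 1, 15, 0 and 16. Leiden clusters, computed with all Tox genes left out of the variable genes, contained a γδ-like cluster of 81 cells led by 5830411N06Rik, Sox13, Maf and Etv5, of which Sox13 and Maf are factors of interleukin-17-producing γδ T cells. In that cluster Tox2 stood at 136, 216, 104 and 138 CPM (18, 28, 19 and 27 UMIs), and 38 of the 81 cells had at least 1 UMI. The next cluster in order, a DPsel-like cluster, reached 16.0 to 30.5 CPM, so the γδ-like cluster stood apart in every library. Tox was at 326, 385, 262 and 308 CPM in the same cells, within the range of the DPsel-like clusters, and Tox3 had 1 UMI. Clusters were made from these cells, so their levels are given without a test.

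Tox3 differed from Tox and Tox2 in the direction of the step into DPsel, and most of its counts lay before selection. Of its 1266 UMIs in kept cells, 64.1% lay in the DPre gate and 2.92% in DPsel, where Tox had 27.0% and 10.3%. Gate size enters these shares: DPre held 42.7% to 56.9% of the kept cells of a library and DPsel 2.46% to 4.67%. In DPre Tox3 stood at 13.6, 20.6, 17.3 and 16.1 CPM, and in DPbla at 5.38, 5.47, 4.84 and 5.59 CPM. The DPre values lay above those of MPS droplets (5.72 to 9.46 CPM) and the DPbla values below.

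Outside the αβ stages Tox3 was highest in the gate of thymic epithelial cells (TEC), which form the stroma in which thymocytes are selected. Its 37, 19, 50 and 49 cells held 5, 4, 2 and 6 Tox3 UMIs, or 36.0, 33.5, 9.01 and 19.2 CPM, which overlapped the DPre sums. Cd8b1 stood at 324 to 843 CPM in these droplets. They held 21.3 to 59.4 Tox3 UMIs per 1000 Cd8b1 UMIs, against 3.83 to 8.28 in MPS droplets and 0 to 8.89 in B cells, so the ratio of Tox3 to Cd8b1 lay above that of the other droplets in every library. The same ratio for Tox was 129 to 265 in TEC droplets. That lay above MPS droplets (51.3 to 83.6) and overlapped B cells (57.8 to 143), so a ratio above that of MPS was not particular to Tox3.

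From DPsel on Tox3 declined to almost no counts. DPsel sums gave 7.78, 9.80, 4.37 and 9.87 CPM, none of them as high as a DPre sum. CD4SP sums held 0, 2, 3 and 1 UMIs and CD8SP sums 0, 2, 0 and 0. In DN cells 0, 5, 2 and 19 UMIs gave 0, 20.9, 9.25 and 26.8 CPM, and the DN cluster gave 13.8, 31.6, 18.6 and 18.9 CPM from 119 UMIs.

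Tox3 fell by 1.90 ± 0.39 from DN to DPbla (edgeR adjusted p = 9.2e-05) and rose by 1.38 ± 0.16 from DPbla to DPre (edgeR adjusted p = 2.0e-10). In UMIs per cell DPbla (0.0428 to 0.0476) and DPre (0.0387 to 0.0579) overlapped. From DPre to DPsel it fell by 0.96 ± 0.25 (edgeR adjusted p = 0.0016), where Tox and Tox2 rose. In UMIs per cell Tox3 was lower in DPsel (0.0194 to 0.0418) than in DPre in each library, but the ranges overlapped and in cKO 2 the values were 0.0372 and 0.0387. In CPM it fell further to CD4SP by 2.24 ± 0.57 (edgeR adjusted p = 0.0020) and to CD8SP by 3.45 ± 0.75 (edgeR adjusted p = 3.7e-04), with 6 and 2 UMIs behind the SP values.

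Of these Tox3 calls 3 were lost under an alternative. The fall into DPsel missed the threshold with stricter gates (-0.96, edgeR adjusted p = 0.074), as did the fall to CD4SP (-2.27, edgeR adjusted p = 0.060). The fall from DN was lost without cKO 2, which held 19 of the 26 DN UMIs (-1.30, edgeR adjusted p = 0.16). In order of mean CPM Tox3 ran from CD8SP (0.499) over CD4SP (1.54), DPbla (5.32), DPsel (7.96) and DN (14.3) to DPre (16.9). In that order CD8SP and CD4SP (edgeR adjusted p = 0.64), DPbla and DPsel (edgeR adjusted p = 0.23, 60.5% of genes called) and DN and DPre (edgeR adjusted p = 0.22) did not differ beyond their spread, whereas CD4SP lay below DPbla by a log2 difference of -1.82 ± 0.52 (edgeR adjusted p = 0.0024, 64.8% of genes called) and DPsel below DN by -1.48 ± 0.42 (edgeR adjusted p = 0.0044). The contrasts between stages in this order, apart from CD8SP minus CD4SP, were added after the levels had been seen.

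**Figure D3:**
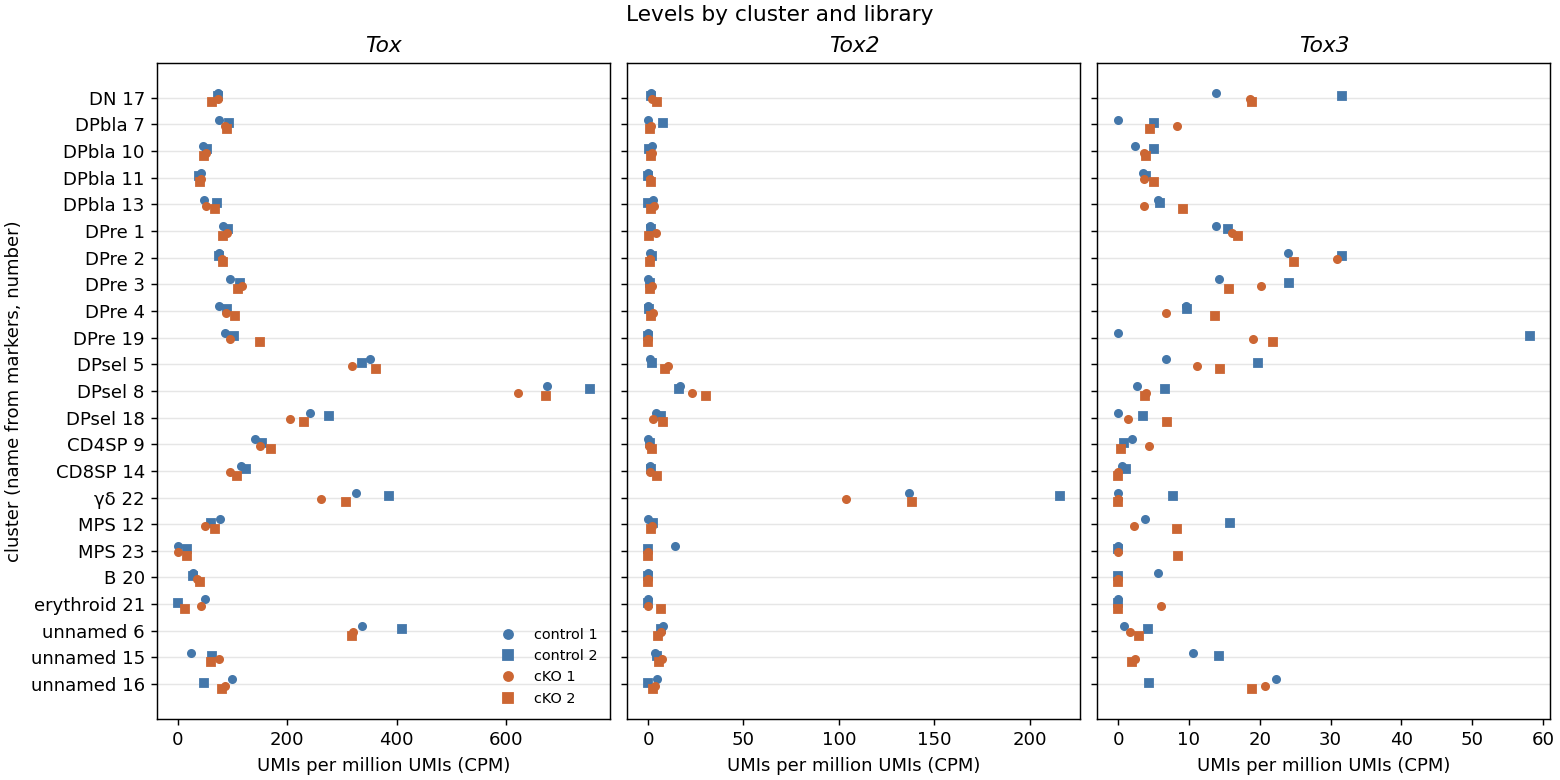
Levels of Tox, Tox2 and Tox3 (UMIs per 1000000 UMIs, linear axes of different range) in 23 clusters, named from marker genes and numbered by size. Points are libraries (blue control, orange cKO); Tox peaks in DPsel-like cluster 8 at 623 to 753 CPM, Tox2 in γδ-like cluster 22 at 104 to 216 CPM, and Tox3 is spread over the DN-like and DPre-like clusters (10.3 to 28.1 CPM over the pooled libraries, in cluster 19 from 11 UMIs), with 17.15 CPM in the unnamed cluster 16, led by Ubd, Fabp4 and S100a14, and 14.04 CPM in DPsel-like cluster 5.

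The gates left 44.1% of Tox UMIs and 48.9% of Tox2 UMIs in ungated cells. Of these ungated UMIs cluster 8 held 33.1% for Tox and 36.8% for Tox2, cluster 6 held 25.5% and 18.2%, and the γδ-like cluster 22 held 1.08% and 19.0%. Of the 3 DPsel-like clusters, cluster 8 (1699 cells), led by Ccr4, Hivep3, Egr1 and Lef1os1, held the most Tox, with 674, 753, 623 and 674 CPM and a UMI in 85.2% of its cells. It was also second for Tox2, with 16.6, 16.0, 23.0 and 30.5 CPM. Tox3 in it was 2.61 to 6.61 CPM. Cluster 5, led by Arap2, Cd6 and Cd5, still had 6.74 to 19.7 CPM of Tox3 beside 319 to 363 CPM of Tox, whereas cluster 6 had 0.849 to 4.28 CPM of Tox3 at 318 to 411 CPM of Tox. Cluster 6, led by Itm2a and Il7r, scored highest for DPsel markers but was left unnamed, since its 10 leading genes held 2 CD4SP markers (Zbtb7b and Cd40lg) and 1 DPsel marker (Itm2a). Its Tox2 level was 5.27 to 8.06 CPM, from 67 UMIs. The DPsel-like cluster 18, led by Xcl1, Tnfrsf9, Nr4a3 and Nr4a1, the last 2 of them early targets of TCR signals, had the least Tox of the 3, at 205 to 276 CPM. Among the large DPre-like clusters Tox3 was highest in cluster 2, led by Xrra1 and Smoc1, at 24.03, 31.7, 30.9 and 24.8 CPM.

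Genes whose course over the 24 stage sums (6 stages in 4 libraries) was most like that of each paralog were ranked by Pearson's r of log2(CPM + 1) among 9410 genes. The points share libraries and stages, so r is a description. Tox ran most closely with Sh2d2a, a T cell adaptor protein (r = 0.948), Egr1 (0.931), creatine kinase Ckb (0.930), the guanine nucleotide exchange factor Trio (0.930), Egr2 (0.929), Dad1 (0.926), Lef1os1 (0.921) and 4930417O13Rik (0.915). Egr1 and Egr2 encode zinc-finger factors induced by TCR signals, and mean Egr1 went from 27.2 CPM in DPre to 259 in DPsel and 79.1 in CD4SP. At the other end stood Rnaseh2a (-0.862), Ndufb10 (-0.856) and Pidd1 (-0.849).

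For Tox2 the leading gene was Gata3 (r = 0.794), the factor that drives CD4 lineage choice upstream of ThPOK, followed by Ppp6r1 (0.772), Map3k11 (0.758), the interleukin-25 receptor gene Il17rb (0.751), Slc9a9 (0.734), Rwdd4a (0.720), Sdad1 (0.719) and Dnaja1 (0.709). The lowest were Rab3ip (-0.717), Emp3 (-0.708) and Platr25 (-0.647). For Tox3 the leading genes were Tfdp2 (0.912), Gm2629 (0.912), Ralgps2 (0.906), Trat1 (0.888), Tra2a (0.884), Sox4 (0.869), Gnai3 (0.869) and Dnajc6 (0.868). Sox4, an HMG-box factor like the TOX proteins, had its highest mean level in DPre as Tox3 did, at 1067 CPM. Unlike Tox3 it stayed near that level in DPsel, at 984 CPM, and it fell to 381 CPM in CD4SP. The lowest for Tox3 were Slc35g1 (-0.898), Phf11b (-0.837) and Ggct (-0.836). Between the paralogs themselves r was 0.494 for Tox and Tox2, 0.463 for Tox2 and Tox3, and -0.0354 for Tox and Tox3.

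Pathway genes around TOX moved at the same step. Of 15 tested genes of calcineurin-NFAT signalling and the TCR response, the input by which TOX is induced in thymocytes, 12 were higher and 1 lower in DPsel than in DPre, with a median log2 change of 2.43 against 0.01 over all genes tested. Over all 9698 genes 37.6% were called, 2085 higher and 1561 lower. The DPsel gate itself uses Cd69 and Itm2a, which TCR signals induce. Nr4a1 rose by 4.40 ± 0.13 (edgeR adjusted p = 5.1e-28) and Cd5 by 2.70 ± 0.10 (edgeR adjusted p = 1.7e-25). Among the NFAT genes Nfatc1 rose by 1.01 ± 0.11 (edgeR adjusted p = 3.1e-10), while Nfatc3 fell by 1.12 ± 0.08 (edgeR adjusted p = 7.1e-15).

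Of 16 lineage factors, 9 were higher and 6 lower in DPsel than in DPre, with a median of 0.41, beside the same 37.6% of all genes. They included Zbtb7b, which encodes the CD4 lineage factor ThPOK (4.98 ± 0.22, edgeR adjusted p = 6.5e-22), Runx3, its CD8 lineage counterpart (1.87 ± 0.16, edgeR adjusted p = 7.3e-13), and Gata3 (1.64 ± 0.09, edgeR adjusted p = 4.2e-19). Of the 10 genes that accompany TOX in exhausted and follicular helper T cells 6 passed the filter, 3 of them higher (Pdcd1, which encodes PD-1, by 3.03 ± 0.35, Icos and Batf) and 2 lower (Lag3 and Bcl6), again beside 37.6% of all genes.

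In the cKO comparison the deleted gene was considered first. Tox4 stood at 68.9 and 73.4 CPM in all kept cells of control 1 and 2 and at 54.9 and 62.2 CPM in cKO 1 and 2, lower in both cKO libraries by a log2 difference of -0.26 ± 0.10 (edgeR adjusted p = 0.23). In DPre Tox4 stood at 77.4 and 83.1 CPM in control 1 and 2 and at 63.4 and 66.5 CPM in cKO 1 and 2. In DPbla and DPsel the libraries of the groups overlapped. The floxed exons 4 to 6 lie upstream of the 3′ end from which UMIs are counted. A transcript that lacked these exons but kept its 3′ end would therefore still be counted. Whether the cKO cells held such a transcript was not tested, so the Tox4 level was not used as a measure of the deletion.

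None of the 3 paralogs was called between cKO and control in any stage. Tox passed the filter on low counts in all 7 sums tested (5 stages, all DP cells and all kept cells), Tox2 in 4 and Tox3 in 5. Of these 16 tests edgeR called 0 at an adjusted p under 0.05, with 2 at an unadjusted p under 0.05, both for Tox, and DESeq2 also called 0 of the 12 with an adjusted p, with 1 at an unadjusted p under 0.05. Over all genes, edgeR called 5.76% of those tested in the summed DP cells and 2.40% over all kept cells. Among single stages it called 1.29% (DPbla), 1.07% (DPre), 0.273% (DPsel), 0.0258% (CD4SP) and 0.121% (CD8SP). With the replicate number as a block, the genes called went from 136 to 732 in DPbla, 127 to 851 in DPre, 23 to 100 in DPsel, 2 to 103 in CD4SP, 9 to 56 in CD8SP, 719 to 1935 in all DP cells and 332 to 1997 in all kept cells.

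In DPsel, where Tox is highest, the control libraries had 432 and 454 CPM and the cKO libraries 396 and 434 CPM. The groups overlapped, with a log2 difference of -0.07 and a 95% interval of -0.31 to 0.16 (edgeR adjusted p = 0.94). In DPre the difference was 0.10, from -0.12 to 0.31 (edgeR adjusted p = 0.72), and in DPbla -0.01, from -0.27 to 0.25 (edgeR adjusted p = 0.98). The DPsel value moved with the processing, to -0.34 ± 0.17 with stricter gates (edgeR adjusted p = 0.86) and -0.26 ± 0.17 at a mitochondrial limit of 5% (edgeR adjusted p = 0.91).

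In the SP lineages both cKO libraries lay below both control libraries. Tox in CD4SP went from 199.6 and 216 CPM to 174 and 164 CPM, a log2 difference of -0.34 from -0.63 to -0.05 (edgeR adjusted p = 0.59). In CD8SP the difference was -0.28 from -0.60 to 0.03 (edgeR adjusted p = 0.71). With clusters in place of the gates the CD4SP difference turned to 0.09 ± 0.12 (edgeR adjusted p = 0.91). In cells thinned to 1000 UMIs, the mean share with a Tox UMI in CD4SP was 19.8% in controls and 16.1% in cKO libraries. For CD8SP it was 14.8% against 14.2%, and the libraries overlapped. At a mitochondrial limit of 5% the shares were 12.9% against 18.0% in CD4SP and 12.5% against 10.3% in CD8SP.

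In the finer SP gates, which split these same cells, both cKO libraries also lay below both controls. Mean Tox in cells without an S1pr1 or Klf2 UMI was 323 CPM in controls and 213 CPM in cKO libraries for CD4SP, and 279.95 against 208 CPM for CD8SP, from 36 to 75 Tox UMIs per sum. In cells with such a UMI it was 182 against 158 CPM for CD4SP and 148 against 131 CPM for CD8SP. Each of these 4 differences gave p = 0.333 in a two-sided exact permutation test, the smallest p that 2 libraries against 2 allow, and whether the less mature cells differed more was not tested.

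Over all kept cells Tox stood at 149 and 168 CPM in controls and 128 and 138 CPM in cKO libraries, a log2 difference of -0.23 ± 0.09 (edgeR adjusted p = 0.24). With the replicate number as a block the difference was -0.22 ± 0.07 and passed the threshold (edgeR adjusted p = 0.024), the 1 paralog call that the block changed. In such a sum fewer cells of a type and less RNA per cell cannot be told apart. Cells of cluster 8, which held the most Tox, made up 5.15% and 6.23% of kept cells in the controls and 3.55% and 5.18% in the cKO libraries, and those of cluster 6 made up 6.85% and 5.84% against 5.93% and 5.32%. The part of these shares in the difference was not tested. Over all DP cells the Tox difference was -0.16 ± 0.10 (edgeR adjusted p = 0.39), and -0.34 ± 0.11 at a mitochondrial limit of 5% (edgeR adjusted p = 0.11).

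**Figure D4:**
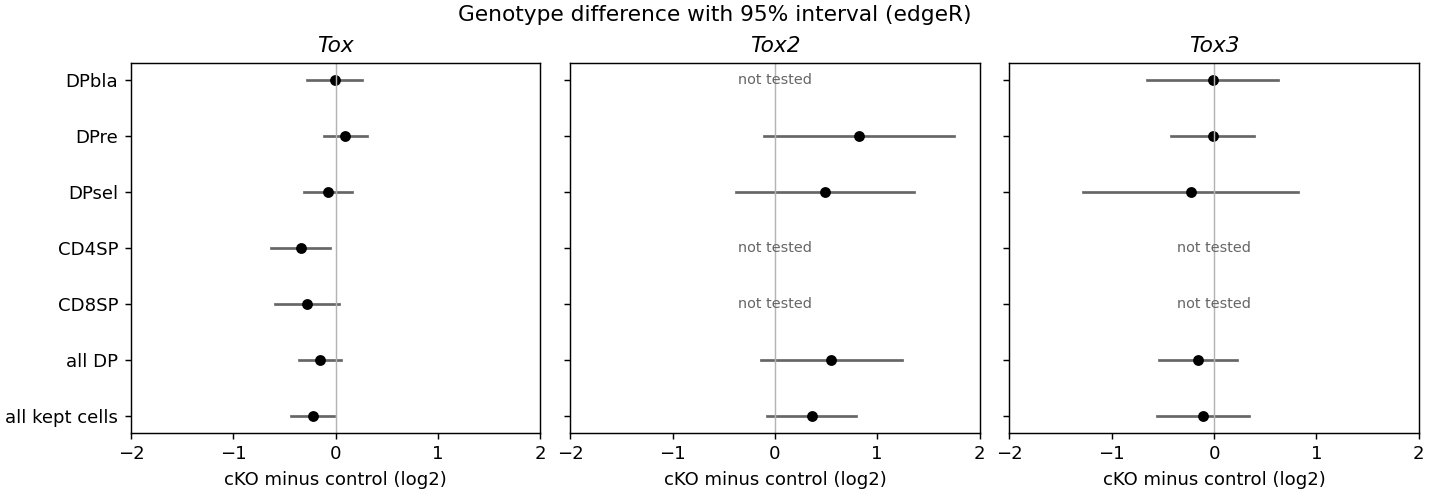
Difference between cKO and control on the log2 scale for Tox, Tox2 and Tox3, with dots for the edgeR estimate and lines for its 95% interval; sums in which a gene did not pass the filter on low counts are marked as not tested. All intervals except those of Tox in CD4SP and in all kept cells span 0, and no test passed after adjustment over all genes.

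Tox2 had wider intervals. In DPre it went from 1.36 and 1.41 CPM in the controls to 3.36 and 1.62 CPM in the cKO libraries, a log2 difference of 0.82 from -0.10 to 1.75 (edgeR adjusted p = 0.42), and without cKO 1 the value was 0.25. In DPsel the difference was 0.49 from -0.38 to 1.35 (edgeR adjusted p = 0.85), with 10.1 and 8.99 CPM against 12.02 and 14.4 CPM. For Tox3 the difference was -0.01 from -0.42 to 0.39 in DPre (edgeR adjusted p = 0.98) and -0.23 from -1.28 to 0.82 in DPsel (edgeR adjusted p = 0.97). At this depth a 2-fold rise of Tox2 and a 2-fold fall of Tox3 in DPsel lay within these intervals.

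The DN gate was too small in control 1 for a test, but the DN cluster held 71, 110, 153 and 305 cells. There Tox differed by -0.12 ± 0.18 (edgeR adjusted p = 0.93) and Tox3 by -0.36 ± 0.34 (edgeR adjusted p = 0.85) between cKO and control. No paralog's genotype effect was called as different between DPsel and DPre by an interaction test, which gave -0.18 ± 0.14 for Tox, -0.29 ± 0.63 for Tox2 and -0.25 ± 0.55 for Tox3 (edgeR adjusted p = 0.997 for each, 0% of 10001 genes called, 475 with an unadjusted p under 0.05). A joint test over all stages gave edgeR adjusted p = 0.71 for Tox, 0.98 for Tox2 and 0.93 for Tox3 (0.570% of genes called).

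In cells thinned to 1000 UMIs, the share with a Tox UMI in DPsel was 35.8% ± 5.59 in controls and 32.7% ± 0.725 in cKO libraries (SD, n = 2 each, exact permutation test, two-sided, p = 1, smallest possible p = 0.333). In DPre it was 9.28% ± 0.413 and 9.35% ± 0.439 (exact permutation test p = 0.667). With 2 libraries per group this test cannot pass 0.05. At a mitochondrial limit of 5%, which left 271 DPsel cells, the shares were 43.9% and 53.7% in controls and 37.2% and 35.5% in cKO libraries, a difference of -12.4 percentage points between groups that did not overlap (exact permutation test, two-sided, p = 0.333).

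Genes of the lists above were also called between genotypes. Runx3, at 11.3 and 13.2 CPM in DPbla of the controls, stood at 20.8 and 26.0 CPM in the cKO libraries (0.96 ± 0.19, edgeR adjusted p = 0.016), and rose by 0.98 ± 0.17 in DPre (edgeR adjusted p = 0.017). It was the 1 lineage factor called in each of these stages, of 15 tested in DPbla (1.29% of all genes called) and 16 in DPre (1.07%). In all DP cells, where 5.76% of all genes were called, 2 of 16 lineage factors were, Runx3 higher by 0.90 ± 0.13 (edgeR adjusted p = 0.0026) and Satb1 lower by a log2 difference of -0.33 ± 0.07 (edgeR adjusted p = 0.013). Of 16 calcineurin-NFAT and TCR response genes 1 was called there, Cd5, which fell by 0.54 ± 0.15 (edgeR adjusted p = 0.049), and of 6 exhaustion and follicular helper genes 1, Icos, which fell by 0.89 ± 0.19 (edgeR adjusted p = 0.016). Cd5 and Icos were both higher in DPsel than in DPre, and DPsel cells made up 7.21% and 5.07% of the DP cells of the controls against 5.04% and 3.86% in the cKO libraries. The part of that share in both differences was not tested.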

How the data were processed

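The authors aligned the reads and counted UMIs with cellranger 6.1.1 (version per the file headers) on mm10 (GRCm38) and deposited raw counts per gene and cell, 1 filtered matrix per library, with no normalization. As in the study's methods, cells were removed per library if they had fewer than 200 genes, lay in the 2.5% tails of UMI totals or held over 10% mitochondrial UMIs. For doublets, which the study removed with DoubletFinder, the top 5% of Scrublet scores per library (expected rate 8%) were removed instead. Stages were gated first match wins: DN by Il2ra without CD4 and CD8, DPbla by CD8 and at least 5 cycling-gene UMIs, DPre by CD8 and Rag UMIs, DPsel and the SP stages by Cd69, Itm2a, CD4, CD8 and maturity genes. Clusters came from scanpy 1.11.5 and leidenalg 0.10.2 (resolution 1) and were named from marker lists, so names are rebuilt and "X-like". A cluster whose 10 leading genes held more markers of another list than of its own was left unnamed (cluster 6), a rule applied after its values had been seen.

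UMIs were summed per library and stage, where each library had at least 30 cells for a genotype test, and tested with edgeR 4.0.16 (R 4.3.3, TMM, filterByExpr, quasi-likelihood F test) against all genes. The stage test used stage and library as terms, including the DN sum of 11 cells, the genotype test genotype alone. The study describes 2 pairs of mice and littermates, no label ties the library numbers to a pair, and deviations of same-numbered libraries correlated at r = 0.318 over 8074 genes, so the replicate block was an alternative. SE is the log2 change over the square root of F. DESeq2 1.42.0 was an alternative. The scripts were tested on simulated data. Genes named are the 3 paralogs, Tox4, the 8 most and 3 least alike genes of each paralog, and examples from gene lists. The members and lists were chosen with earlier results of these data known. A further gene list is not reported here, for a reason that has nothing to do with its outcome. Shares of cells were taken after thinning to 1000 UMIs, which left out 525 of 17081 DPre cells and 586 of 2155 MPS droplets. Depth was 42716798 to 62007453 UMIs per library, and 48.3% and 46.1% of cells lay over the mitochondrial limit in control 1 and cKO 1, against 20.6% and 23.1% in control 2 and cKO 2. Protein sequences were not used here.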

Additional observations from a re-analysis of the deposited data

How the results depend on the processing

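For Tox, the rise into DPsel (1.99 to 2.39 on the log2 scale), the rise from DPbla to DPre (0.53 to 1.05) and the falls into CD4SP (-1.28 to -0.79) and CD8SP (-1.63 to -0.98) kept direction and call under all 15 alternatives, and so did the Tox2 rise into DPsel (2.48 to 3.53, 14 alternatives) and its fall to CD8SP, and the Tox3 rise from DPbla to DPre and fall to CD8SP. The added alternative, chosen after seeing the data, left out cells whose barcode occurs in another library and changed no call of a paralog. None of the alternatives used UMIs per cell. On that scale Tox was higher in DPbla (0.363 to 0.437) than in DPre (0.270 to 0.330), and for Tox3 these 2 stages overlapped.

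Calls that were lost or gained in single alternatives are given as log2 values with edgeR adjusted p unless another tool is named, and the cause was not tested. The Tox difference between DPbla and DN missed the threshold with no filter on low counts (-0.38), with a mitochondrial limit of 5% (-0.67), with stricter gates (-0.43) and in control (-0.68) or cKO libraries (-0.40) alone, and leaving out 1 library gave -0.64 to -0.33. CD8SP minus CD4SP passed for Tox with clusters (-0.41). Tox2 missed it for CD4SP minus DPsel in controls alone (-2.41, adjusted p = 0.051) and passed for DPbla minus DN by DESeq2 (-1.72) and with stricter gates (-2.23). Tox3 missed it with stricter gates for CD4SP minus DPsel (-2.27) and DPsel minus DPre (-0.96), for CD4SP minus DPsel in cKO libraries (-1.62) and for DPbla minus DN in controls (-1.44), where leaving out 1 library gave -2.01 to -1.30.

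Values that changed sign were not called on either side. Tox in DPbla between genotypes turned to 0.00081 without the filter, 0.19 and 0.055 with a mitochondrial limit of 5% and none, 0.0077 with doublets kept, 0.055 with UMI tails kept, 0.012 with stricter gates and 0.024 with clusters, and lay between -0.041 and 0.024 without 1 library. Tox in CD4SP turned to 0.093 with clusters. Tox2 turned to -0.28 for DPre minus DPbla with clusters, to -1.16 for CD8SP minus CD4SP in controls (-0.85 to 1.45 without 1 library) and to -0.29 in all DP cells at the 5% limit, and its interaction to 0.020 with clusters and ran from -0.95 to 0.36 without 1 library. Tox3 turned to 0.41 for CD8SP minus CD4SP in controls, in DPbla to 0.030 with UMI tails kept, 0.075 with stricter gates and 0.19 with clusters, in DPre to 0.18 at the 5% limit, and in the interaction to 0.061 with clusters. Without 1 library its genotype values ran from -0.14 to 0.082 in DPbla, -0.28 to 0.35 in DPre, -0.97 to 0.19 in DPsel, -0.41 to 0.16 in all DP cells and -0.39 to 0.27 in all kept cells, and its interaction from -1.06 to 0.23. The Tox share in DPre turned to a difference of -0.434 percentage points unthinned and -0.0786 at 500 UMIs, and in DPsel, where it was -3.06, to 1.69 at 500 UMIs. It kept its sign at the 5% limit but grew to -12.4.

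Without a change of call, the Tox difference between genotypes ran from -0.34 to -0.01 in DPsel and from -0.34 to -0.11 in all DP cells over 14 alternatives.

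With the replicate block, the Tox difference over all kept cells was -0.22 and passed the threshold (edgeR adjusted p = 0.024), and no other call of a paralog changed. The block moved the genes called from 127 to 851 in DPre, 23 to 100 in DPsel and 719 to 1935 in all DP cells, and over all alternatives the counts ran from 5 to 851, 0 to 100 and 74 to 1935, and from 1594 to 5335 for DPsel minus DPre. The counts of 0 in DPsel came from edgeR with mitochondrial limits of 5% and none, without shared barcodes and without cKO 1, where 301, 569, 606 and 619 genes had an unadjusted p under 0.05. At the 5% limit neither Tox2 nor Tox3 passed the filter of the stage test, which gave no value there.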
